A study of Homo sapiens with 12 samples.

Results

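Exons that lie between long introns were followed through knockdown of SFSWAP, a splicing factor of the SURP domain and arginine-serine rich class, in human HEK293A-TOA cells, a derivative of the HEK293 embryonic kidney line. A cassette exon event was taken as a member where the exon was over 30 and under 300 nt long, the junction distance on each side was 5000 bp or more, and the event had a mean of at least 10 inclusion plus skipping reads per library. One event was kept per exon, that with the most reads. This gave 9014 of 91660 exons in the table of siSFSWAP and siNT cells and 9123 of 87969 exons in the table of siSFSWAP/siUPF1 and siNT/siUPF1 cells. The same event met the rule in both tables for 5673 exons, and 12218 of 123253 exons met it in either table, in 3962 genes. No readout of the knockdowns entered the rule. The groups were siSFSWAP (a mixture of 2 siRNAs against SFSWAP at 40 nM), siNT (non-target siRNA), siSFSWAP/siUPF1 (SFSWAP siRNAs with siRNA against UPF1 at 30 nM) and siNT/siUPF1, with 3 biological replicates each and 12 libraries in all. Knockdowns ran for 5 days, and every group, controls included, received 1 μM TG (thiamet G, an inhibitor of O-GlcNAcase that raises O-GlcNAc on proteins) for 6 hours before harvest, so cells without TG are not described here. All cells were of 1 line.

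The spliceosome pairs splice sites either across the intron, which is common where introns are short, or across the exon, which is the usual route in vertebrate genes where a small exon sits between long introns. In the exon-definition route U2AF at the upstream 3′ splice site and the U1 snRNP at the downstream 5′ splice site are bridged over the exon, often with SR proteins bound to it. UPF1 is the RNA helicase at the centre of nonsense-mediated decay, which removes mRNAs with a premature stop codon. An exon whose length is not a multiple of 3 shifts the reading frame when it is included or skipped, and 1 of the resulting mRNAs can become a decay target.

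The coding exons on which the results below turn are printed here with 50 bases of the upstream intron and 20 bases of the downstream intron from hg38, 5′ to 3′ on the transcribed strand, so that the splice sites can be read beside the values. Capitals mark the exon and lower case the introns.
RABEPK, 153 nt (chr9:125213320-125213542, plus strand): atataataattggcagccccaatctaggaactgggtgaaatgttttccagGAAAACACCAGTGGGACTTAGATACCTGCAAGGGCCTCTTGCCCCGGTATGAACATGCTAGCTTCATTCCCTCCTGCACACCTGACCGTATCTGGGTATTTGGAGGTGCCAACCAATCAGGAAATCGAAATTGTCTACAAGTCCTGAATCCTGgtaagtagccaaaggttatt
MFF, 159 nt (chr2:227347176-227347404, plus strand): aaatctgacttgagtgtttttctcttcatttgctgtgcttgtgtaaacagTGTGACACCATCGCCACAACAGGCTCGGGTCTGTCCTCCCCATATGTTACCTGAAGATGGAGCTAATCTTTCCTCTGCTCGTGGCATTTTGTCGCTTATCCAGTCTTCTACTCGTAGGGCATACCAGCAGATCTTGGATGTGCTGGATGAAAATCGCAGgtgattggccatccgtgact
MRPL22, 136 nt (chr5:154950753-154950958, plus strand): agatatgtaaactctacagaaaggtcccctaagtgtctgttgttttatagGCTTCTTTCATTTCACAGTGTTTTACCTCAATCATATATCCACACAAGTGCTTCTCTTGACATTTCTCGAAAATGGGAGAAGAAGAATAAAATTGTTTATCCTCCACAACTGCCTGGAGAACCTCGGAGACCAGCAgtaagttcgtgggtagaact
EPB41L2, 147 nt (chr6:130878084-130878300, minus strand): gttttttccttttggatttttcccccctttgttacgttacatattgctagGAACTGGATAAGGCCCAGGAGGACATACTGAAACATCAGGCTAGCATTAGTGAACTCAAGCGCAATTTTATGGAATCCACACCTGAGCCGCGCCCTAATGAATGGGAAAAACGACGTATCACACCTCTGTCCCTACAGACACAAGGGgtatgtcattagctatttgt
UBE2Q2, 105 nt (chr15:75859828-75860002, plus strand): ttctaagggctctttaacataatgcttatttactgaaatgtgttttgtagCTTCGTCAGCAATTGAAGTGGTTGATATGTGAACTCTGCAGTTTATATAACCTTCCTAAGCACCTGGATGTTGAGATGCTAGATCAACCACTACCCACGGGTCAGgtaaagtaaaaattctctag
GINS1, 91 nt (chr20:25418055-25418215, plus strand): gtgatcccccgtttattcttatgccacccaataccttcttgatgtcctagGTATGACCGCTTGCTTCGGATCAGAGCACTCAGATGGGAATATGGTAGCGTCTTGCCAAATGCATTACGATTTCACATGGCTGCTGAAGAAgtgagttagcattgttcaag
CADM1, 33 nt (chr11:115198386-115198488, minus strand): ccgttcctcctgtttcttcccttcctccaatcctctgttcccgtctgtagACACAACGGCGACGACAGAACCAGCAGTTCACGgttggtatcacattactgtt
UPP1, 47 nt (chr7:48101774-48101890, plus strand): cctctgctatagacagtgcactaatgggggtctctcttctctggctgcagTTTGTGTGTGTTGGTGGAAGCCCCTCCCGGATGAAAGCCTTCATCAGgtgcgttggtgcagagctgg
The introns around these exons ran over 5002 bp (downstream of UPP1) to 19630 bp (downstream of CADM1). Each ended in AG before the exon and began with GT after it, and the CADM1 exon, at 33 nt, is close to the lower length limit of the rule.

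The reads behind the events were deep and the knockdowns were visible in them. Inclusion plus skipping reads summed over the events of a table, which share reads, came to 36947787 to 38860728 in siSFSWAP libraries, 33165134 to 40637073 in siNT libraries, 25938084 to 32640311 in siSFSWAP/siUPF1 libraries and 32120531 to 35194795 in siNT/siUPF1 libraries. Reads at the 7 SFSWAP events averaged 12.9 ± 2.63 per 1000000 in siSFSWAP cells and 32 ± 1.06 in siNT cells (SD, n = 3 each), and 14.7 ± 5.25 in siSFSWAP/siUPF1 cells and 35.7 ± 5.26 in siNT/siUPF1 cells. Reads at the 15 UPF1 events averaged 57.2 ± 16.1 per 1000000 in siNT/siUPF1 cells and 174 ± 31.5 in siNT cells, and 78 ± 22.6 in siSFSWAP/siUPF1 cells and 205 ± 17.3 in siSFSWAP cells. The libraries of the groups were separate in all 4, with an exact two-sided permutation p of 0.1, the smallest that 3 libraries against 3 allow.

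Most members were exons that nearly every transcript included. By their mean level in siNT cells, 5590 members lay at 0.9 or more, 947 between 0.5 and 0.9, 410 between 0.1 and 0.5 and 2067 under 0.1. The inclusion level is the length-corrected share of inclusion, from reads of either form per base of that form's effective length. The median level over 9007 members with a value in every library lay between 0.966 and 0.970 in siSFSWAP libraries and between 0.967 and 0.975 in siNT libraries. Levels of at least 0.9 were reached by 60.6% to 61.4% of these exons in siSFSWAP libraries and by 60.7% to 61.8% in siNT libraries, and levels under 0.1 by 21.7% to 22.8% in siSFSWAP libraries and by 22% to 23.5% in siNT libraries. Annotation went with the level. Of 9011 members on the assembled chromosomes in the siSFSWAP and siNT table, 57.5% were coding exons of GENCODE 44, with a median level of 0.985 in siSFSWAP cells and 0.985 in siNT cells. The 27.9% whose exact start and end no annotated transcript holds had a median level of 0.047 in siSFSWAP cells and 0.0387 in siNT cells. In siNT cells 29.8% of them still reached 0.9. A form that differs from an annotated exon at 1 end only counts among them. The untranslated exons (4.78%) had a median of 0.213 in siSFSWAP cells and 0.187 in siNT cells.

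In sequence the members were AT-rich next to exons in short introns. Their median GC content was 45.5% in the exon, 35% in the 100 nt before it and 37% in the 100 nt after it. Exons of the same length range between 2 introns under 1000 bp had medians of 55.5%, 55% and 55% at the same places. Of the 20 nt before the exon, 70% were C or T in the median member and 65% in the median exon of short introns. The consensus 5′ splice sites GTAAGT or GTGAGT, searched at the first 6 intron bases of the transcribed strand, stood after 29% of members and 18.5% of exons in short introns. The median member had 119 nt with 14439 bp of intron before it and 11911 bp after it, and 38% kept the reading frame. Members are not independent of each other, since 2603 of 9014 overlap another member and PTK2 and EIF4G3 hold 17 each.

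SFSWAP knockdown changed few of these exons. The test needed at least 10 inclusion and 10 skipping reads over the libraries compared, which 2980 members passed in siSFSWAP against siNT cells. Of these, 38 rose and 29 fell at an adjusted p of at most 0.05 (quasi-binomial logistic regression with dispersion moderated by limma, Benjamini-Hochberg over all events), which is 2.25%, beside 12% of all 33839 events tested. In the direction of higher inclusion the background was 7.76% and in that of lower inclusion 4.21%. In siSFSWAP/siUPF1 against siNT/siUPF1 cells 29 members rose and 21 fell of 3105 tested, which is 1.61%, beside 7.52% of all 34006 events (4.05% higher and 3.47% lower). The groups did not overlap for 436 of the 2980 members (14.6%), beside 25.9% of all events, and for 440 of the 3105 members (14.2%), beside 21.6%. The median difference over tested members was 0.00303 in siSFSWAP minus siNT cells and 0.00113 in the UPF1 knockdown background, beside 0.00424 and 0.00113 over all events tested. The called exons lay in 55 of 1614 genes and in 38 of 1702 genes tested.

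Among all exons of that length range the called share was lower where the shorter flank was longer, over most of the bins. In siSFSWAP against siNT cells 24.2% of 5058 events with a shorter flank under 200 bp were called, 10.3% of 4705 at 500 to 1000 bp, 5.51% of 3865 at 2000 to 4000 bp and 2.00% of 899 at 10000 to 20000 bp. Above 50000 bp none of 61 was called. Beside the limit of the rule, 24 of 591 events at 5000 to 6000 bp were called (4.06%) and 27 of 891 at 4000 to 5000 bp (3.03%). With UPF1 knocked down the shares were 16.2% of 4675 under 200 bp, 6.33% of 4790 at 500 to 1000 bp, 3.33% of 4148 at 2000 to 4000 bp and 1.43% of 908 at 10000 to 20000 bp. At 5000 to 6000 bp 2.95% of 645 were called there, and at 4000 to 5000 bp 1.43% of 976, so that no step down stood at the limit of the rule in either table. Exons with 1 flank of 5000 bp or more and the other under 1000 bp were called in 166 of 2282 cases (7.27%) and in 144 of 2361 cases (6.10%), between the shares of members and those of exons in short introns (23% of 5592 and 16.0% of 5005). These shares are set side by side as a description, since exons of the same libraries are not replicates.

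**Figure D1:**
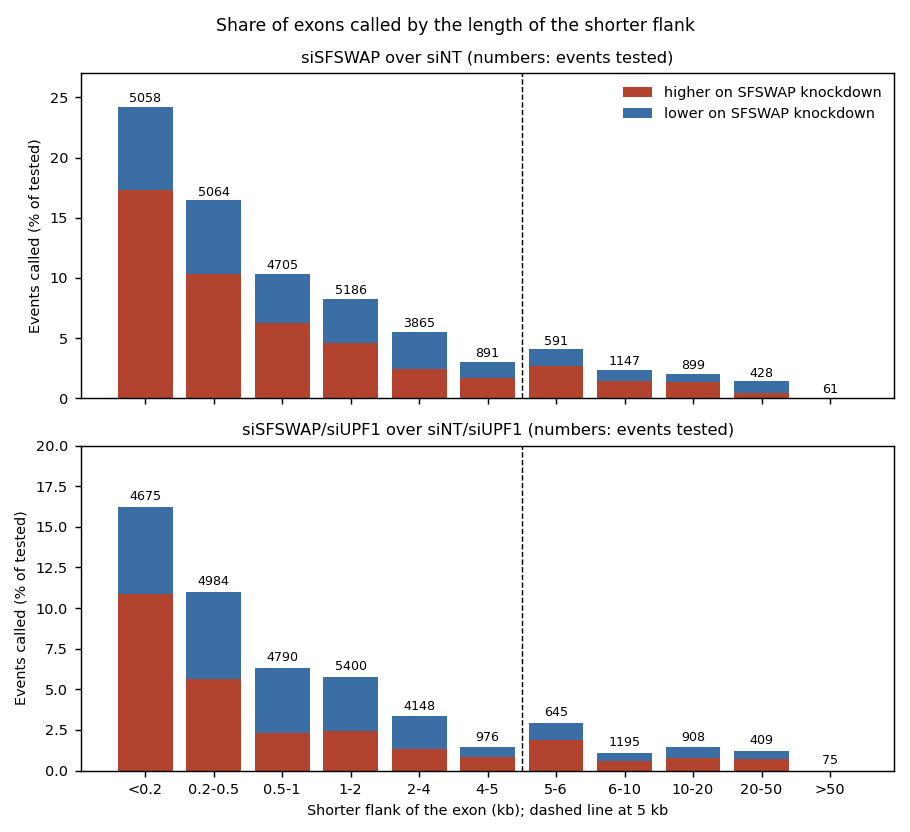
Share of tested cassette exon events called at an adjusted p of at most 0.05 (vertical axis, percent) by the length of the shorter flank (horizontal axis, kb), for siSFSWAP over siNT (top) and siSFSWAP/siUPF1 over siNT/siUPF1 (bottom), with red for higher and blue for lower inclusion and the number of events tested above each bar. The bars fall to 2.00% and 1.43% at 10 to 20 kb, against 24.2% and 16.2% under 0.2 kb.

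Reads, precision and base composition were set beside the difference. In siSFSWAP against siNT cells tested members had a median of 80.7 reads per library and a median SE of 1.03 on the log2 odds ratio, exons in short introns 144.5 reads and 1.02. Within the same bins of SE the called share of members was 9.25%, 1.14%, 0.887% and 5.38% (SE under 0.5, 0.5 to 1, 1 to 1.5 and over 1.5), and that of exons in short introns 44.2%, 20.9%, 9.99% and 35.2%. The reads still differed within these bins, with medians of 187.7, 86.5, 58.4 and 66.1 per library for members and 381.4, 136.7, 103.1 and 124.1 for exons in short introns. The part of reads and precision in the difference was not tested. By GC content of the 100 nt on each side, members were called in 2.08%, 2.63%, 1.94% and 1.79% of cases (under 35%, 35% to 45%, 45% to 55%, and 55% or more), and exons in short introns in 23.4%, 16.0%, 17.7% and 27.7%. Direction went with GC content among exons in short introns, of which 18 rose and 124 fell in the lowest bin and 724 rose and 45 fell in the highest. Among members 10 rose and 15 fell in the lowest bin, 21 and 9 at 35% to 45%, 5 and 3 at 45% to 55%, and 2 and 2 in the highest. With UPF1 knocked down, the members' share was 0.918%, 1.48%, 2.96% and 4.62% over the same GC bins, against 16.6%, 13.6%, 14.8% and 17.5% of exons in short introns. These bins were chosen after the data were seen.

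**Figure D2:**
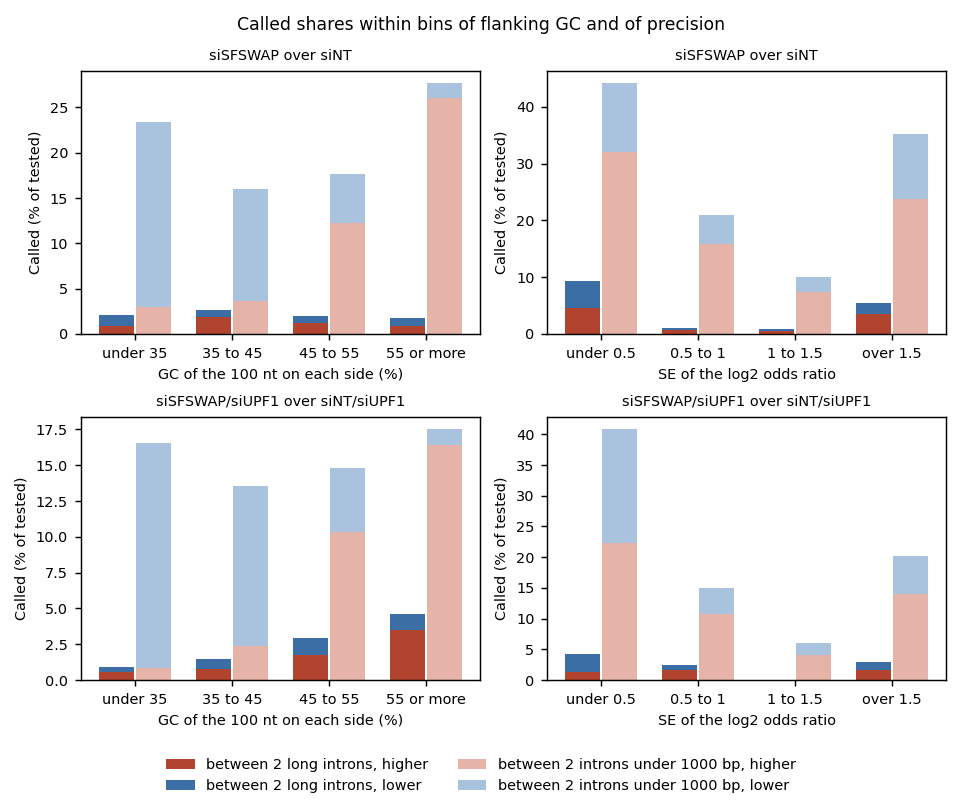
Share of tested events called (vertical axes, percent) within bins of the GC content of the 100 nt on each side of the exon (left) and of the SE of the log2 odds ratio (right), for both SFSWAP comparisons. Dark bars are exons between long introns and light bars exons between introns under 1000 bp, with red for higher and blue for lower inclusion, and the dark bars are the lower of each pair, for example 2.08% and 23.4% at a GC content under 35% in siSFSWAP over siNT.

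Among the members that changed, 60 of the 67 called in siSFSWAP against siNT cells had groups that did not overlap (2.01% of those tested, beside 10.4% of all events). Of the same 67, 35 differed by at least 0.1 (1.17% of those tested, beside 7.07% of all events). RABEPK, a kelch-repeat protein that binds the GTPase Rab9 on the route from endosomes to the trans-Golgi, had the largest rise in mean level under the naming limits. The 153-nt exon 4 of the MANE transcript had levels of 0.872, 0.885 and 0.882 in siSFSWAP cells, against 0.659, 0.737 and 0.702 in siNT cells. The lowest siSFSWAP library exceeded the highest siNT library, with a log2 odds ratio of 1.63 ± 0.35 (SE) and an adjusted p of 0.000136. EPB41L2, a protein 4.1 family member that links membrane proteins to the spectrin-actin skeleton, had levels of 0.753, 0.767 and 0.786 in siSFSWAP cells, against 0.597, 0.692 and 0.626 in siNT cells, for a 147-nt exon that keeps the frame. That difference had a log2 odds ratio of 0.91 ± 0.21 (SE) and an adjusted p of 0.000909. Both calls held in 6 of 6 fits that left out 1 library, but not with limma on log2 odds (adjusted p = 0.136 for RABEPK and 0.39 for EPB41L2, pseudocount 0.5). With each event's own dispersion the adjusted p was 0.248 for both. That fit called 0 of all 33839 events, so it does not tell these exons from others.

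Among the other exons with large rises, PINX1, an inhibitor of telomerase, averaged 0.714 ± 0.045 in siSFSWAP cells and 0.552 ± 0.056 in siNT cells (mean ± SD, n = 3 in each group, here and below), and TSSC1, a gene named EIPR1 in newer annotations, 0.972 ± 0.0094 and 0.826 ± 0.045. PPP2R5C, a regulatory subunit of protein phosphatase 2A, averaged 0.425 ± 0.093 in siSFSWAP cells and 0.285 ± 0.045 in siNT cells, and PSPC1, a paraspeckle RNA-binding protein, 0.472 ± 0.080 and 0.335 ± 0.074. In these 4 genes the groups did not overlap, at adjusted p-values of 0.0205 (PSPC1) to 0.0349 (PINX1) in the same limma-moderated fit. SAE1, a subunit of the SUMO-activating enzyme, held an exon form with no exact match in GENCODE 44. That form averaged 0.843 ± 0.037 in siSFSWAP cells and 0.737 ± 0.036 in siNT cells. Its downstream end is also that of the exon which follows another SAE1 member, so it can be a splice site form of that exon. LRRFIP2 had a 45-nt exon at 0.107 ± 0.057 in siSFSWAP cells and 0.0119 ± 0.011 in siNT cells. Leaving out 1 library ended the call in at least 2 of 6 fits for each of these 6 exons, and in 5 of 6 for PINX1 and TSSC1. TSSC1 had 1 to 2 skipping reads per siSFSWAP library and LRRFIP2 0 to 4 inclusion reads per siNT library. Each of these exons passed the read filter only through the other group.

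The exon with the lowest adjusted p among the named ones fell. MRPL22, a protein of the large subunit of the mitochondrial ribosome, had levels of 0.641, 0.611 and 0.560 for its 136-nt exon in siSFSWAP cells, against 0.877, 0.809 and 0.855 in siNT cells. Skipping reads were 78 to 85 per library in siSFSWAP cells and 20 to 39 in siNT cells, which gave a log2 odds ratio of -1.82 ± 0.28 (SE) and an adjusted p of 3.21e-07 in the limma-moderated fit. The exon is coding but is not part of the MANE transcript, and its length shifts the frame. The call held in 6 of 6 fits that left out 1 library, but not with limma on log2 odds (adjusted p = 0.104). The fit with each event's own dispersion (adjusted p = 0.248) called 0 of all 33839 events.

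SKA2, a protein of the kinetochore-microtubule attachment complex, averaged 0.622 ± 0.104 in siSFSWAP cells and 0.805 ± 0.0068 in siNT cells, and its call (adjusted p = 0.00169) was lost without the first siSFSWAP library, whose level of 0.502 was the lowest (adjusted p = 0.107).

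Further falls were found in TMCO3 (0.658 ± 0.030 in siSFSWAP cells and 0.947 ± 0.060 in siNT cells) and MTURN (0.568 ± 0.142 and 0.821 ± 0.062). DZIP1, a ciliary zinc finger protein, averaged 0.556 ± 0.060 in siSFSWAP cells and 0.749 ± 0.097 in siNT cells, and a 48-nt exon of CSNK2A2, a catalytic subunit of casein kinase 2, 0.830 ± 0.108 and 0.976 ± 0.025. Adjusted p-values of these 4 exons in the limma-moderated fit were 0.0221 (CSNK2A2) to 0.0333 (DZIP1). None of the 4 kept its call in all 6 fits that left out a library. TMCO3 and CSNK2A2 each had 0 to 4 skipping reads per siNT library, so they passed the read filter only through siSFSWAP cells.

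**Figure D3:**
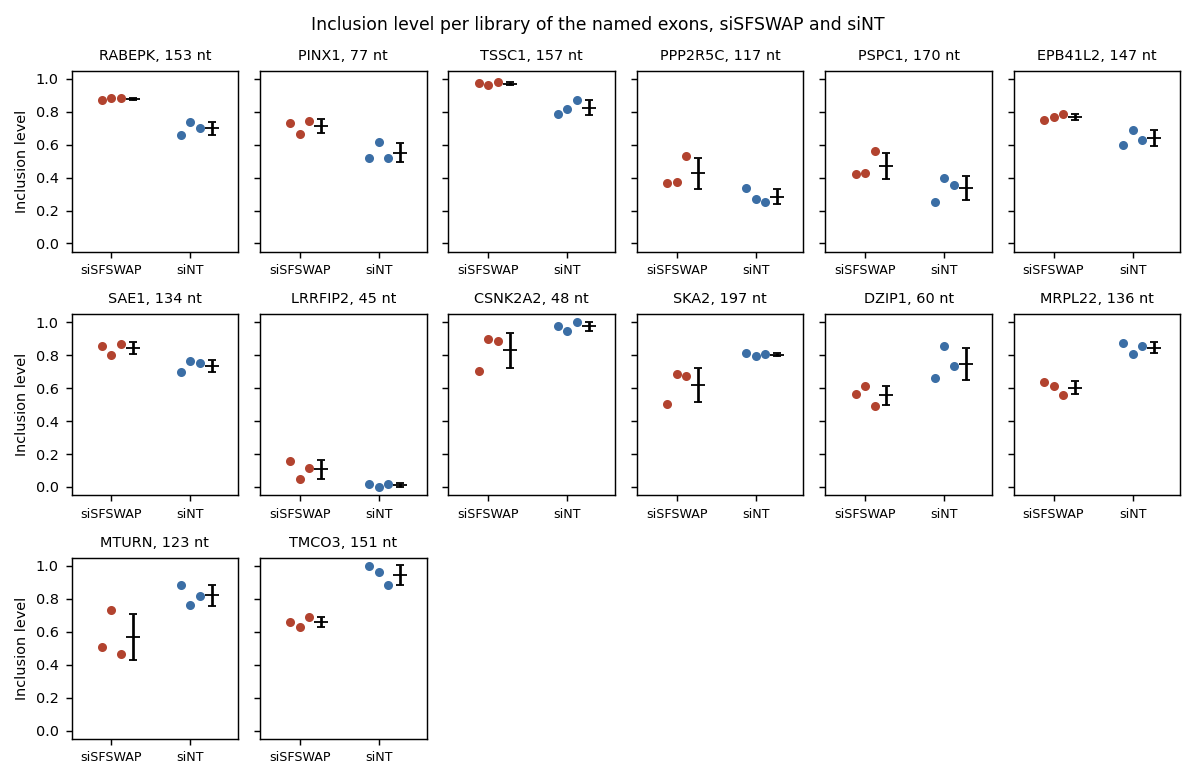
Inclusion level (vertical axis, 0 to 1) of 14 of the exons with the largest difference in siSFSWAP over siNT cells, ordered from the largest rise to the largest fall. Points are libraries, siSFSWAP left of siNT, and the bars beside them give mean ± SD (n = 3). In RABEPK the siSFSWAP points lie at 0.872 to 0.885 above siNT points at 0.659 to 0.737, and in MRPL22 at 0.560 to 0.641 below 0.809 to 0.877.

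Called members in siSFSWAP against siNT cells differed by direction in some of the recorded features. The 38 that rose had a median length of 139.5 nt and 36.8% were coding, and the 29 that fell had a median length of 98 nt and 69.0% were coding. Over all members tested the median length was 117 nt and 46.8% were coding. Of the 38, 15.8% were followed by GTAAGT or GTGAGT, and of the 29 41.4%, beside 25.1% of members tested. In siSFSWAP/siUPF1 against siNT/siUPF1 cells these 5′ splice sites followed 17.2% of the 29 that rose and 14.3% of the 21 that fell. There 55.2% and 57.1% were coding and the median lengths were 137 and 133 nt, so none of these 3 gaps recurred. Frame-keeping exons made up 28.9% of the 38 and 44.8% of the 29 in siSFSWAP against siNT cells, beside 41.2% of members tested. With UPF1 knocked down they made up 27.6% of rises and 57.1% of falls, beside 38.1%, so this gap had the same direction in both. The numbers are small and were not tested.

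In the UPF1 knockdown background 45 of the 50 called members had groups that did not overlap (1.45% of those tested, beside 6.28% of all events). Of the same 50, 26 differed by at least 0.1 (0.837% of those tested, beside 4.46% of all events). UBE2Q2, a ubiquitin-conjugating enzyme, had levels of 0.531, 0.626 and 0.486 for its 105-nt exon 3 in siSFSWAP/siUPF1 cells, against 0.758, 0.819 and 0.889 in siNT/siUPF1 cells. The groups did not overlap, the log2 odds ratio was -1.92 ± 0.46 (SE) and the adjusted p 0.00193. Among the exons that the naming rule took in this comparison, only the UBE2Q2 exon kept its call in all 6 fits that left out a library. Limma on log2 odds ended that call (adjusted p = 0.195). The fit with each event's own dispersion (adjusted p = 0.388) called 0 of all 34006 events. APP, the precursor of amyloid-beta, had lower inclusion of its 57-nt exon 8, at 0.323 ± 0.042 in siSFSWAP/siUPF1 cells and 0.561 ± 0.107 in siNT/siUPF1 cells (adjusted p = 0.0129, limma-moderated fit).

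SLC35A3, the Golgi transporter of UDP-N-acetylglucosamine, had levels of 0.764, 0.786 and 0.865 in siSFSWAP/siUPF1 cells and no skipping read in siNT/siUPF1 cells, where 278 inclusion reads were counted. A count of 0 there allows up to 1.08% of reads to be skipping reads, before any correction for length and for counting error only. MVB12B, a subunit of the ESCRT-I sorting complex, averaged 0.887 ± 0.081 in siSFSWAP/siUPF1 cells and 0.996 ± 0.0064 in siNT/siUPF1 cells. SLC38A1, a glutamine transporter, averaged 0.0736 ± 0.047 and 0.213 ± 0.069 at an untranslated exon, in the same order of groups. SH3GL3, an endophilin, averaged 0.0424 ± 0.041 and 0.168 ± 0.031 at an exon with no exact match in GENCODE 44. These 4 calls were each lost in at least 1 of 6 fits that left out a library. MVB12B had 0 to 1 skipping reads per siNT/siUPF1 library. It and SLC35A3 passed the read filter only through siSFSWAP/siUPF1 cells.

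GINS1, a subunit of the GINS complex of the replicative helicase, rose in the UPF1 knockdown background, with levels of 0.899, 0.842 and 1.00 in siSFSWAP/siUPF1 cells, against 0.639, 0.623 and 0.714 in siNT/siUPF1 cells for its 91-nt exon 4 (log2 odds ratio 2.44 ± 0.72, SE, adjusted p = 0.00814, limma-moderated fit). PDIA5, a protein disulphide isomerase, averaged 0.880 ± 0.052 in siSFSWAP/siUPF1 cells and 0.527 ± 0.054 in siNT/siUPF1 cells. CYP20A1, a cytochrome P450, averaged 0.876 ± 0.078 in siSFSWAP/siUPF1 cells and 0.600 ± 0.190 in siNT/siUPF1 cells. These exons shift the frame, as do those of SENP6, a SUMO protease (0.837 ± 0.044 and 0.666 ± 0.011), STYXL1, a pseudophosphatase (0.723 ± 0.017 and 0.552 ± 0.067), and OSBPL9, an oxysterol-binding protein relative (0.899 ± 0.045 and 0.738 ± 0.092), given in the same order of groups. Of the 29 members that rose here 8 kept the frame, and of the 21 that fell 12, beside 38.1% of members tested. None of the 6 rises was called in all fits that left out 1 library. PDIA5 had 1 to 4 skipping reads per siSFSWAP/siUPF1 library, so it passed the read filter only through siNT/siUPF1 cells.

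**Figure D4:**
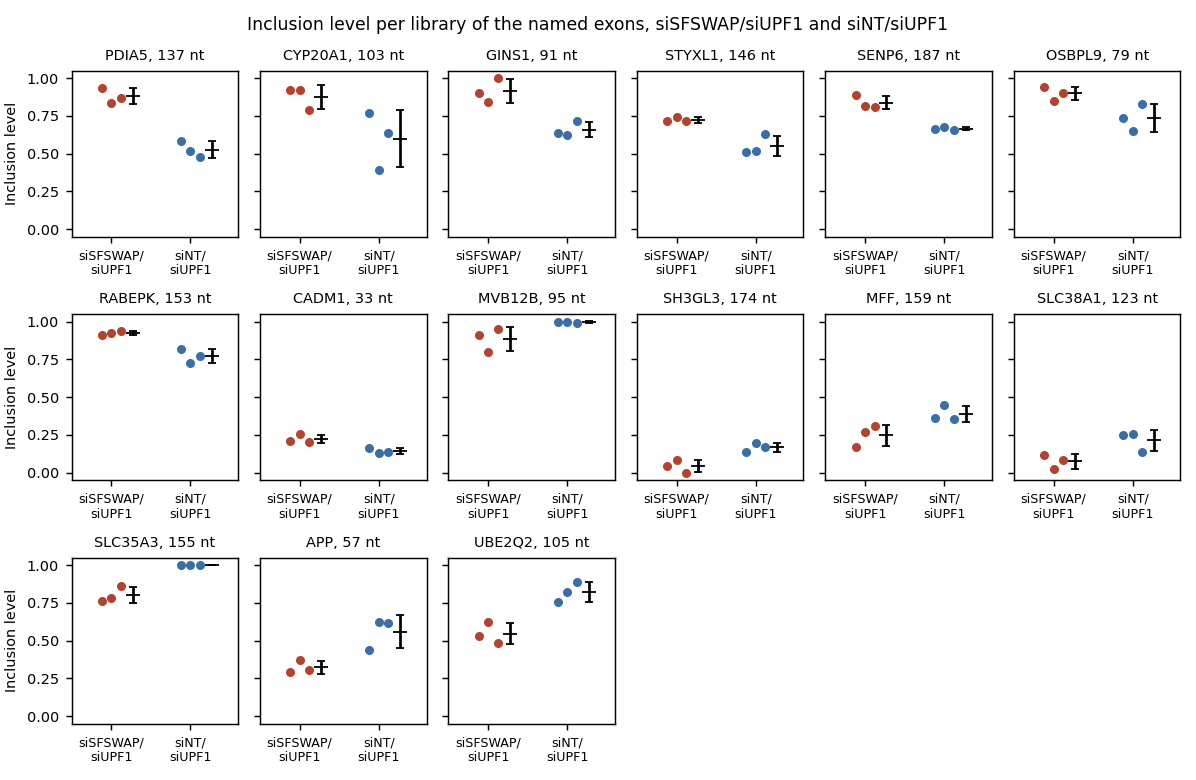
Inclusion level (vertical axis, 0 to 1) of 15 of the exons with the largest difference in siSFSWAP/siUPF1 over siNT/siUPF1 cells, ordered from the largest rise to the largest fall. Points are libraries, siSFSWAP/siUPF1 left of siNT/siUPF1, with mean ± SD (n = 3) beside them, and in UBE2Q2 the points lie at 0.486 to 0.626 and at 0.758 to 0.889.

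Few exons were called in both SFSWAP comparisons, which share no library. Of the 5919 exons that met the rule in both tables, 2068 were tested in both, and 5 were called in the same direction in both, which is 7.46% of the 67 called in siSFSWAP against siNT cells and 10% of the 50 called in the UPF1 knockdown background. None was called in opposite directions. Over all events 1167 were called in both, which is 28.8% and 45.6% of the calls. Of the exons called in siSFSWAP against siNT cells, 51 were tested in the other background and 42 of these differed in the same direction there, and in the other order 29 of 37 did, beside 1225 of all 2068 tested in both (59.2%).

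RABEPK was the 1 exon of the 5 with a mean of at least 50 reads that rose in both, with levels of 0.910, 0.928 and 0.940 in siSFSWAP/siUPF1 cells, against 0.822, 0.727 and 0.771 in siNT/siUPF1 cells (adjusted p = 0.00622, limma-moderated fit). That call was kept in 3 of 6 fits that left out a library. MFF, the receptor of the fission GTPase DRP1 on mitochondria, fell in both. Its 159-nt exon 6 had levels of 0.221, 0.261 and 0.226 in siSFSWAP cells, against 0.370, 0.304 and 0.325 in siNT cells, and 0.172, 0.266 and 0.306 in siSFSWAP/siUPF1 cells, against 0.361, 0.448 and 0.355 in siNT/siUPF1 cells. The groups did not overlap in either background, but the call in siSFSWAP against siNT cells (adjusted p = 0.0405) was kept in 1 of 6 fits that left out a library.

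VAPA and DOCK3 were called in both as well. The 135-nt exon of VAPA, a tether of the endoplasmic reticulum to other membranes, averaged 0.176 ± 0.020 in siSFSWAP cells and 0.298 ± 0.118 in siNT cells, and 0.194 ± 0.063 in siSFSWAP/siUPF1 cells and 0.329 ± 0.101 in siNT/siUPF1 cells. Its siNT libraries lay at 0.230, 0.231 and 0.434, all above the siSFSWAP libraries at 0.164 to 0.199, and with UPF1 knocked down the groups overlapped. The adjusted p for VAPA was 2.03e-05 in siSFSWAP against siNT cells and 6.86e-05 with UPF1 knocked down (limma-moderated fit). Fits that left out a library are not given for it. An exon of DOCK3, an exchange factor for the GTPase Rac, had no exact match in GENCODE 44. It averaged 0.480 ± 0.092 in siSFSWAP cells and 0.118 ± 0.073 in siNT cells, from a mean of 21 reads per library. Its inclusion reads were 9 over the siNT libraries, so it passed the read filter only through siSFSWAP cells. With UPF1 knocked down it had levels of 0.462, 1.00 and 0.511 in siSFSWAP/siUPF1 cells, against 0.249 ± 0.034 in siNT/siUPF1 cells (adjusted p = 0.0437, limma-moderated fit). The DOCK3 call was kept in 1 of 6 fits that left out a library in siSFSWAP against siNT cells and in 0 of 6 in the UPF1 knockdown background, where the adjusted p then ran over 0.0691 to 0.277.

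Members in lists of genes by function were called in 0 to 5.77% of cases per list in siSFSWAP against siNT cells, and 7.65% to 16.5% of all events of the same lists were. In the UPF1 knockdown background these shares were 0.862% to 4.17% of the lists' members and 4.28% to 15.2% of all their events. Among splicing and RNA-binding genes 44 members were tested in siSFSWAP against siNT cells, of which 0 rose and 1 fell, beside 142 of 863 events of the list (RBM6, 0.103 ± 0.030 in siSFSWAP cells and 0.372 ± 0.099 in siNT cells, from a mean of 28 reads). In siSFSWAP/siUPF1 against siNT/siUPF1 cells 2 of 48 rose and 0 fell, beside 122 of 805 events called, both of them overlapping forms of the HNRNPM exon 2, at 0.998 ± 0.0021 in siSFSWAP/siUPF1 cells and 0.989 ± 0.011 in siNT/siUPF1 cells, where the groups overlapped. With 0 to 7 skipping reads per siSFSWAP/siUPF1 library, this HNRNPM exon passed the read filter only through siNT/siUPF1 cells. Chromatin and transcription genes had 1 rise (KDM1A, a histone lysine demethylase, 0.347 ± 0.026 in siSFSWAP cells and 0.285 ± 0.013 in siNT cells) and 3 falls (MED27 among them) of 73 tested, beside 100 of 865 events called. In the other background they had 0 rises and 1 fall of 79, beside 61 of 881.

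Kinases and phosphatases had 4 rises and 2 falls of 104 in siSFSWAP against siNT cells, beside 94 of 907 events called, of which 3 of the members were overlapping forms in PPP2R2A. The named PPP2R2A exon of 198 nt had levels of 0.0215, 0.00474 and 0.0232 in siSFSWAP cells and 0.00110, 0.00118 and 0.000890 in siNT cells, where each library held 1 inclusion read. It thus passed the read filter only through siSFSWAP cells. With UPF1 knocked down this list had 0 rises and 2 falls of 104, beside 62 of 963 events called, both forms of a TLK1 exon at 0.0131 ± 0.013 in siSFSWAP/siUPF1 cells and 0.0622 ± 0.021 in siNT/siUPF1 cells. Cytoskeleton, adhesion and junction genes had 2 rises (EPB41L2 and KIFC3) and 1 fall (MAP4) of 138, beside 86 of 838 events called, and 1 rise of 116 in the other background, beside 48 of 808. The KIFC3 exon had a mean of 21 reads per library and 2 to 5 inclusion reads per siNT library. It thus passed the read filter only through siSFSWAP cells, and its call was kept in 2 of 6 fits that left out a library.

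Among ubiquitin system genes 0 of 93 members were called in siSFSWAP against siNT cells, and 0 rose and 2 fell of 91 in the UPF1 knockdown background (UBE2Q2 and CUL5), beside 64 of 837 and 38 of 887 events of the list. Small GTPase regulators had 1 rise of 43 and 2 rises of 49, all in DOCK3, beside 24 of 267 and 16 of 322 events. Membrane traffic genes had 1 rise of 91 (RABEPK) and 2 rises of 93 (RABEPK and OSBPL9), beside 97 of 860 and 56 of 953 events. The naming rule also took exons of these lists that were not called, at adjusted p-values of 0.064 (ASAP1), 0.0876 (STX8), 0.0969 (NEDD4L) and 0.146 (CUL5) in siSFSWAP against siNT cells. With UPF1 knocked down they were TBC1D5 (0.0747), CSNK2A2 (0.0809), CD44 (0.0839), KDM2A (0.144) and QKI (0.149). The medians of the differences over the tested members of the 7 lists lay between 0.00033 and 0.00666 in siSFSWAP minus siNT cells, beside 0.00424 over all events. With UPF1 knocked down they lay between -0.00716 and 0.0103, beside 0.00113.

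Still fewer members were called under UPF1 knockdown, from a narrower set of exons. Only the 5673 exons whose same event met the rule in both tables were compared, so events found in 1 UPF1 background only are left out. In siNT/siUPF1 against siNT cells 6 rose and 2 fell of 2602 tested (0.307%, beside 1.17% of all 28261 events, 0.778% higher and 0.396% lower). All 8 had groups that did not overlap (0.307% of those tested, beside 0.970% of all events tested). Called or not, the groups did not overlap for 406 of the 2602 members (15.6%), beside 14.1% of all events, so this share was not lower in members. UPP1, uridine phosphorylase 1, had levels of 0.423, 0.371 and 0.295 for its 47-nt exon in siNT/siUPF1 cells, against 0.0689, 0.112 and 0.186 in siNT cells (log2 odds ratio 2.15 ± 0.41, SE, adjusted p = 0.00113, limma-moderated fit). The lowest siNT/siUPF1 library thus lay above the highest siNT library, although its call was lost in 1 of 6 fits that left out a library. The other rises were a 158-nt SAE1 exon (0.0411 ± 0.021 in siNT/siUPF1 cells and 0.00932 ± 0.0057 in siNT cells), a 155-nt exon of PIGU, a subunit of the GPI transamidase (0.205 ± 0.091 and 0.0371 ± 0.022), a 140-nt exon of TMEM38B, a channel of the endoplasmic reticulum (0.336 ± 0.072 and 0.0815 ± 0.050), a 197-nt SH3GL3 exon (0.332 ± 0.033 and 0.138 ± 0.050) and a 175-nt exon of the C15orf38AP3S2 readthrough gene (0.0397 ± 0.016 and 0.000834 ± 0.0014). The C15orf38AP3S2 exon had 50 inclusion reads over the siNT/siUPF1 libraries and 1 over the siNT libraries, so it passed the read filter only through the group where it was high.

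None of the 6 exons that rose under UPF1 knockdown has a length divisible by 3. Of the members tested, 1584 were frame-shifting and 1017 frame-keeping, and a tie of these few calls to the frame was not tested. In siNT cells the other 5 beside C15orf38AP3S2 had means of 0.00932 to 0.138. The exons that fell were STYXL1, at 0.552 ± 0.067 in siNT/siUPF1 cells and 0.798 ± 0.050 in siNT cells, and CADM1, an immunoglobulin cell adhesion molecule. The 33-nt CADM1 exon, which keeps the frame, had levels of 0.163, 0.127 and 0.138 in siNT/siUPF1 cells, against 0.288, 0.253 and 0.228 in siNT cells (log2 odds ratio -1.06 ± 0.19, SE, adjusted p = 0.000545, limma-moderated fit). The calls of SAE1, PIGU and CADM1 held in 6 of 6 fits that left out 1 library. Limma on log2 odds (adjusted p = 0.488, 0.459 and 0.658), each event's own dispersion (0.742 for all 3) and the fit without a read filter called 0 members in this comparison. These alternatives also called 0 of all events, so they do not tell these exons from others. STYXL1 and CADM1 were called higher, and the 158-nt SAE1 exon lower (adjusted p = 0.00311, limma-moderated fit), in siSFSWAP/siUPF1 than in siNT/siUPF1 cells. That comparison shares the siNT/siUPF1 libraries with this one. C15orf38AP3S2 was called higher in siSFSWAP than in siNT cells (adjusted p = 0.0194, limma-moderated fit), which shares the siNT libraries. There it passed the read filter only through siSFSWAP cells.

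**Figure D5:**
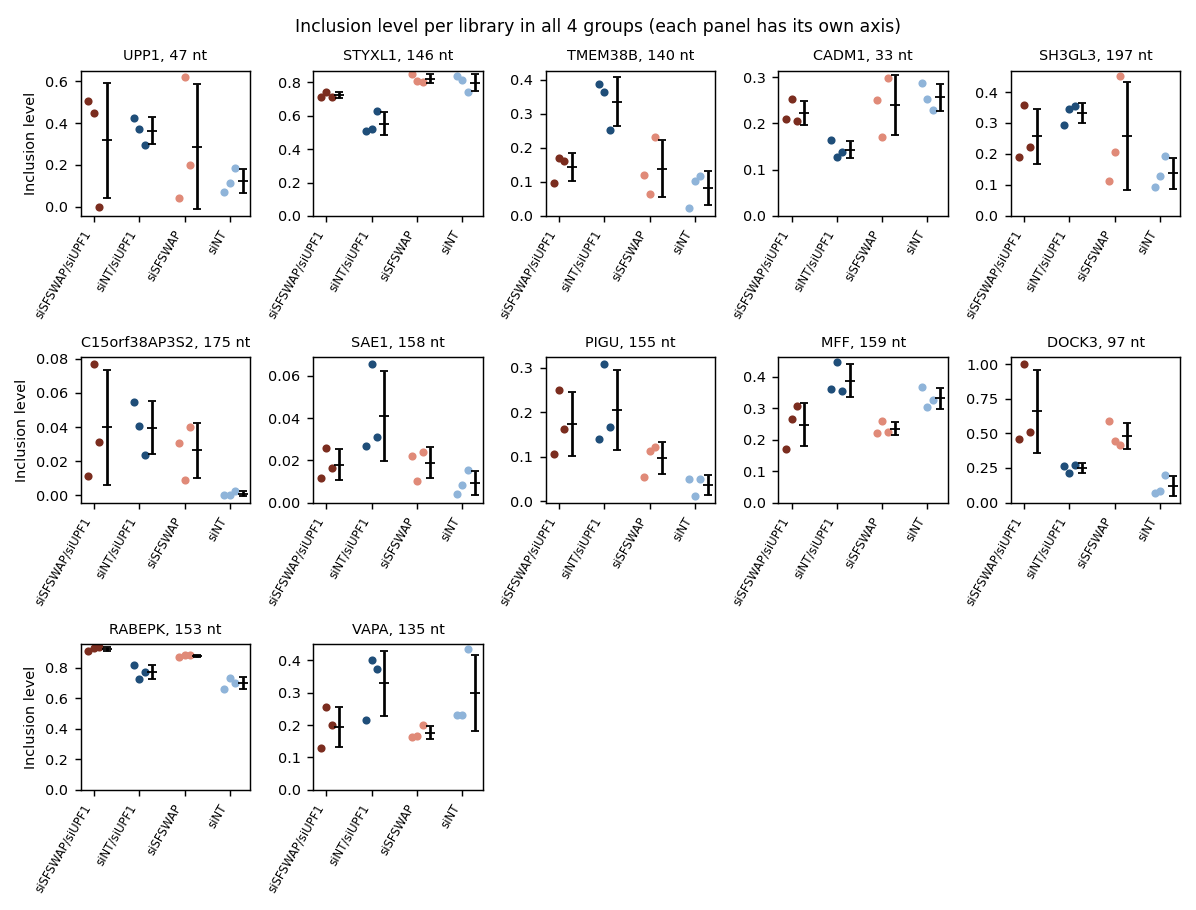
Inclusion level (vertical axes, each panel on its own scale) in every library of the 4 groups for the 8 exons called in siNT/siUPF1 against siNT cells and 4 of those called in both SFSWAP comparisons, with mean ± SD (n = 3) beside the points. UPP1 spreads from 0.295 to 0.423 in siNT/siUPF1 cells and from 0.0689 to 0.186 in siNT cells, and RABEPK and MFF keep the same order of siSFSWAP and siNT with and without UPF1 siRNA.

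Differences by reading frame went beyond the called exons. Members were split at a level of 0.5 in the siSFSWAP libraries, which the comparison of siNT/siUPF1 with siNT cells does not use. Of 657 frame-shifting exons below that level, 490 (74.6%) were higher in siNT/siUPF1 than in siNT cells, with a median difference of 0.0128, and of 383 frame-keeping ones 255 (66.6%), with a median of 0.0085. At or above the level, 377 of 927 frame-shifting exons (40.7%) were higher, with a median of -0.00821, and 365 of 634 frame-keeping ones (57.6%), with a median of 0.00486. In siSFSWAP/siUPF1 against siSFSWAP cells, split by the siNT libraries, the shares were 59.1% of 662 and 55.3% of 827 for frame-shifting exons and 58.7% of 402 and 57% of 602 for frame-keeping ones, below and above the level. The shares of the frame classes thus lay further apart in siNT cells than in siSFSWAP cells. This was not tested, because exons share libraries and neighbours.

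In siSFSWAP/siUPF1 against siSFSWAP cells 0 of 2494 members were called (0.0816% of all 25748 events were), and limma on log2 odds called 0, also of all events. In the quasi-binomial fit 120 of the 2494 members had an unadjusted p under 0.05, beside 1279 of the 25748 events. The groups did not overlap for 244 of these members (9.78%), beside 9.45% of all events. The difference between the SFSWAP effects in the UPF1 knockdown background and without it was tested in 1 fit of all 12 libraries. There 0 of 3753 members were called (0.00771% of all 38928 events were), and limma called 0, also of all events. In that quasi-binomial fit 239 of the 3753 members had an unadjusted p under 0.05, beside 2711 of the 38928 events. The lowest adjusted p was 0.301, for SENP6 and for CUL5, a cullin scaffold of ubiquitin ligases, followed by AHRR (0.474), SAE1 (0.488) and EIF4G3 (0.492). The SENP6 exon averaged 0.837 ± 0.044 in siSFSWAP/siUPF1 cells and 0.666 ± 0.011 in siNT/siUPF1 cells, and 0.688 ± 0.10 in siSFSWAP cells and 0.826 ± 0.0056 in siNT cells. The CUL5 exon averaged 0.0186 ± 0.0049, 0.0783 ± 0.044, 0.0534 ± 0.017 and 0.0191 ± 0.0081 in the same order of groups. An effect called in 1 background only is therefore not shown to differ from the other.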

How the data were processed

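PolyA RNA of 12 libraries (3 biological replicates in each of 4 groups) was sequenced. Per the submitters' processing notes the authors trimmed reads with cutadapt 1.9.1 and aligned them with STAR 2.7 to GRCh38.p8, and the paper's methods name rMATS for event tables of junction and exon-body reads. The deposited tables hold raw counts of inclusion and skipping reads per event. Each cell joins the 3 values of a group without a replicate number, so libraries are numbered by place. The paper defines the difference as siNT minus siSFSWAP, which told the sides apart. The authors' p-values, FDR and level differences were not used, nor were the retained intron tables.

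Each event was fitted by two-sided quasi-binomial logistic regression with dispersion moderated by limma 3.58.1 in R 4.3.3 and floored at 1, on events that averaged 10 or more reads per library and held 10 or more reads of each form, with Benjamini-Hochberg adjustment over all events of a table. Log2 odds ratios carry an offset of 0.5. The common prior makes the fit assume similar spread across events. UPF1 comparisons used events of equal coordinates in both tables, which rMATS made separately. Features came from hg38 and GENCODE 44, and printed sequences from hg38. An exon counted as annotated only where an exon of GENCODE 44 on the same strand had the same start and end. The fit was tested on simulated data drawn with the same dispersion for every event, so that test does not cover spread that differs between events. Counting errors cover reads, which are not independent molecules.

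The members and lists were chosen with earlier results of these data known. Named exons were, per SFSWAP comparison, the 8 genes that differed most in each direction among called members averaging 50 or more reads without overlap of the groups, exons called in both SFSWAP comparisons, the 5 genes of lowest adjusted p per direction for UPF1 and in the interaction, and 2 genes per list. VAPA, the 197-nt SH3GL3 exon, MED27 and MAP4 were named after their values were seen. Some exons that the rule took are not reported here. Alternatives were another filter, limma on log2 odds, other dispersions, other call rules and leaving out each library.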

Additional observations from a re-analysis of the deposited data

How the results depend on the processing

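The lower called share of exons between long introns was present in each fit that left out 1 library. It ran from 0.913% to 2.25% in siSFSWAP against siNT cells, beside 7.82% to 12.5% of all events, and from 0.485% to 2.28% in the UPF1 knockdown background, beside 4.23% to 9.93%. The counts themselves depended on single libraries, from 23 (without the third siSFSWAP library) to 57 called members, against 67 with all libraries, in siSFSWAP against siNT cells. They ran from 13 (without the second siNT/siUPF1 library) to 62 (without the third), against 50, in the UPF1 knockdown background, from 3 to 23, against 8, under UPF1 knockdown in siNT cells (without the first siNT and without the third siNT/siUPF1 library), and from 0 to 1, against 0, in siSFSWAP cells and in the interaction. The share under UPF1 knockdown in siNT cells was 0.123% to 0.999% of members tested, beside 0.487% to 2.38% of all events. It was 0 to 0.045%, beside 0.0331% to 0.169%, in siSFSWAP cells and 0 to 0.0278%, beside 0 to 0.120%, in the interaction. Limma on log2 odds called 20 members with a pseudocount of 0.5 (9 higher and 11 lower) and 21 with a pseudocount of 1 in siSFSWAP against siNT cells. These were 0.671% and 0.705% of members tested, beside 4.16% and 6.12% of all events. In the UPF1 knockdown background limma called 4 and 7 (0.129% and 0.225%, beside 0.618% and 1.55% of all events). It called 0 under UPF1 knockdown in siNT cells with either pseudocount, as did the fit without the filter on inclusion and skipping reads. Both also called 0 of all events there. Each event's own dispersion called 0 in all comparisons, among members and among all events alike. A difference of at least 0.1 left 35 members in siSFSWAP against siNT cells and 26 in the UPF1 knockdown background, and both flanks of 10000 bp or more left 19, 18 and, under UPF1 knockdown in siNT cells, 4. That limit left 3931 of 9014 and 3933 of 9123 members. Counting each gene once, an alternative chosen after seeing the data, gave 55 and 38. For the named exons 0 alternatives reversed a direction. The share of inclusion reads without the length correction moved 30 of their differences by more than the spread between replicates, for example RABEPK to 0.0941, against 0.181, EPB41L2 to 0.0784, against 0.130, and TSSC1 to 0.0646, against 0.146, in siSFSWAP minus siNT cells. Leaving out a library kept the side of the threshold in 280 fits and lost a call in 139, and the other alternatives kept it in 389 cases and lost it in 158. Beyond the alternatives' own construction (fewer libraries, fewer degrees of freedom, fewer exons), the cause was not tested. No paired analysis was possible because the tables join the 3 libraries of a group in 1 cell without a replicate number. Exons with few skipping reads limit the depth: 4757 of 9014 members had under 10 skipping reads over 6 libraries and were not tested.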
